A study of Homo sapiens with 6 samples.

Results

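The mitochondrial ribosomal protein genes are the nuclear genes for the proteins of the mitochondrial ribosome (mitoribosome). They were chosen as the rows of the expression table whose Ensembl identifier has a protein-coding symbol that starts with MRPL (large subunit) or MRPS (small subunit) followed by a digit. The rule found 78 genes among 58735 rows, 49 of them MRPL and 29 MRPS, on 21 chromosomes. HGC27, a line of human gastric cancer cells, was profiled by RNA sequencing to see how gene expression changes under ARV-825, a compound that links a BET bromodomain ligand to a ligand of the ubiquitin ligase subunit cereblon and so marks BET proteins for degradation. The treatment group received ARV-825 for 48 h at the dose written ARV125nM in the sample titles (n = 3), and the control group received 0 nM (n = 3), called untreated in the labels and DMSO in the study's Methods. HGC27 was the only line sequenced, both groups were grown in the same medium with serum and antibiotics, and no genetic change was made in either. Neither source says that the 3 samples of a group were separate cultures, so that each p-value reflects how far these particular samples spread, possibly for technical reasons.

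The mitoribosome translates the messenger RNAs that the mitochondrial genome encodes, all of them for subunits of the respiratory chain and the ATP synthase. Its ribosomal RNAs are made in the mitochondrion, while every protein is encoded in the nucleus, made in the cytosol and imported. The large subunit joins amino acids and releases the chain through an exit tunnel at the inner membrane, and the small subunit binds the messenger RNA and decodes it. Many of the proteins have a counterpart in bacterial ribosomes, and the others are found only in mitochondria.

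The values are FPKM, fragments per kilobase of exon relative to the depth of each library. The libraries held 14821971 to 15201942 fragments in genes in the ARV-825 group and 16626609 to 19145661 in the control group, so that 1 fragment in 1 kb of exon was worth 0.0665 to 0.0686 FPKM in ARV-825 and 0.0495 to 0.0581 FPKM in control libraries. The mitochondrial genome took 9.84% to 11.97% of the fragments in ARV-825 libraries and 5.62% to 6.24% in control libraries. Of the 5 epithelial and 6 gastric marker genes examined, none reached 1 FPKM in any library. Vimentin, a mesenchymal marker, stood at 245 to 248 FPKM in ARV-825 and 262 to 274 FPKM in control libraries. The other mesenchymal markers examined were far lower. *FN1* had means of 1.99 FPKM in ARV-825 and 4.76 FPKM in control libraries. *CDH2* was listed at 0 in every ARV-825 library and at 0.0451 to 0.0801 FPKM in control libraries. *PTPRC*, a marker of leukocytes, was at 0.0298 to 0.0726 FPKM in ARV-825 and 0.0324 to 0.0507 FPKM in control libraries, and *PECAM1*, a marker of endothelial cells, was at 0 to 0.0257 FPKM in ARV-825 and listed at 0 in every control library. In bulk RNA, fewer cells that express a gene and less RNA per cell cannot be told apart.

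Most mitoribosomal genes were lower after ARV-825. The mean over all libraries reached 1 FPKM for 77 members, of which 56 were lower, 9 were higher and 12 missed the threshold at an adjusted p under 0.05 (limma on log2(FPKM + 1), adjusted by Benjamini-Hochberg over all 13442 genes tested). Among all genes tested, 40.2% were lower and 37% were higher in that fit. The median log2 fold change, ARV-825 over control, was −0.42 for the 77 genes and −0.02 for all genes tested, and it was −0.09 for the 10590 protein-coding genes, of which 45.9% were lower. A change above 1 on the log2 scale was reached by 10 of the 77 members, all of them lower (8 MRPL and 2 MRPS). By both thresholds, 12.1% of all genes were lower and 8.81% were higher, and 1441 of the 10590 protein-coding genes were lower and 593 higher. That count of 10 was 21 under TPM (15 MRPL and 6 MRPS), 15 by voom on recovered fragments, 8 with library medians set equal, when *MRPL11* (−0.99) and *MRPL58* (−0.94) fell short, and 7 without ARV-825 replicate 3. In 56 members every ARV-825 library lay below every control library and in 9 every ARV-825 library lay above, against 41.6% and 38.5% of all genes. Rescaling every library to the same FPKM sum (TPM) gave 68 members lower and 4 higher, and it gave 7214 lower and 3176 higher among all genes, against 5405 lower and 4977 higher on the FPKM scale. Under TPM the medians were −0.31 for all genes, −0.82 for MRPL and −0.59 for MRPS genes, so changes near 0 change sign with the scale and are marked below.

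Both subunits had more genes lower than higher. Of the 49 MRPL genes, 38 were lower, 6 higher and 5 undecided at that threshold, and the median log2 fold change was −0.50 (quartiles −0.75 and −0.28). Of the 28 MRPS genes tested, 18 were lower, 3 higher and 7 undecided, and the median was −0.26 (quartiles −0.60 and −0.01). No test compared the subunits. With subunits assigned by symbol, the median for MRPL genes lay 0.17 to 0.27 below that for MRPS genes on the log2 scale in every setting tried. The medians were closer with subunits assigned by place, as given below. The 78th gene, *MRPS24*, was under the filter and is given below with its values. A symbol does not always match the place of the protein, since *MRPS30* and *MRPS18A* proteins sit in the large subunit and the *MRPS36* protein is now known as part of the oxoglutarate dehydrogenase complex. Counted by place, the large subunit had 38 of 51 genes lower (median −0.48) and the small subunit had 18 of 25 tested genes lower (median −0.37).

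**Figure D1:**
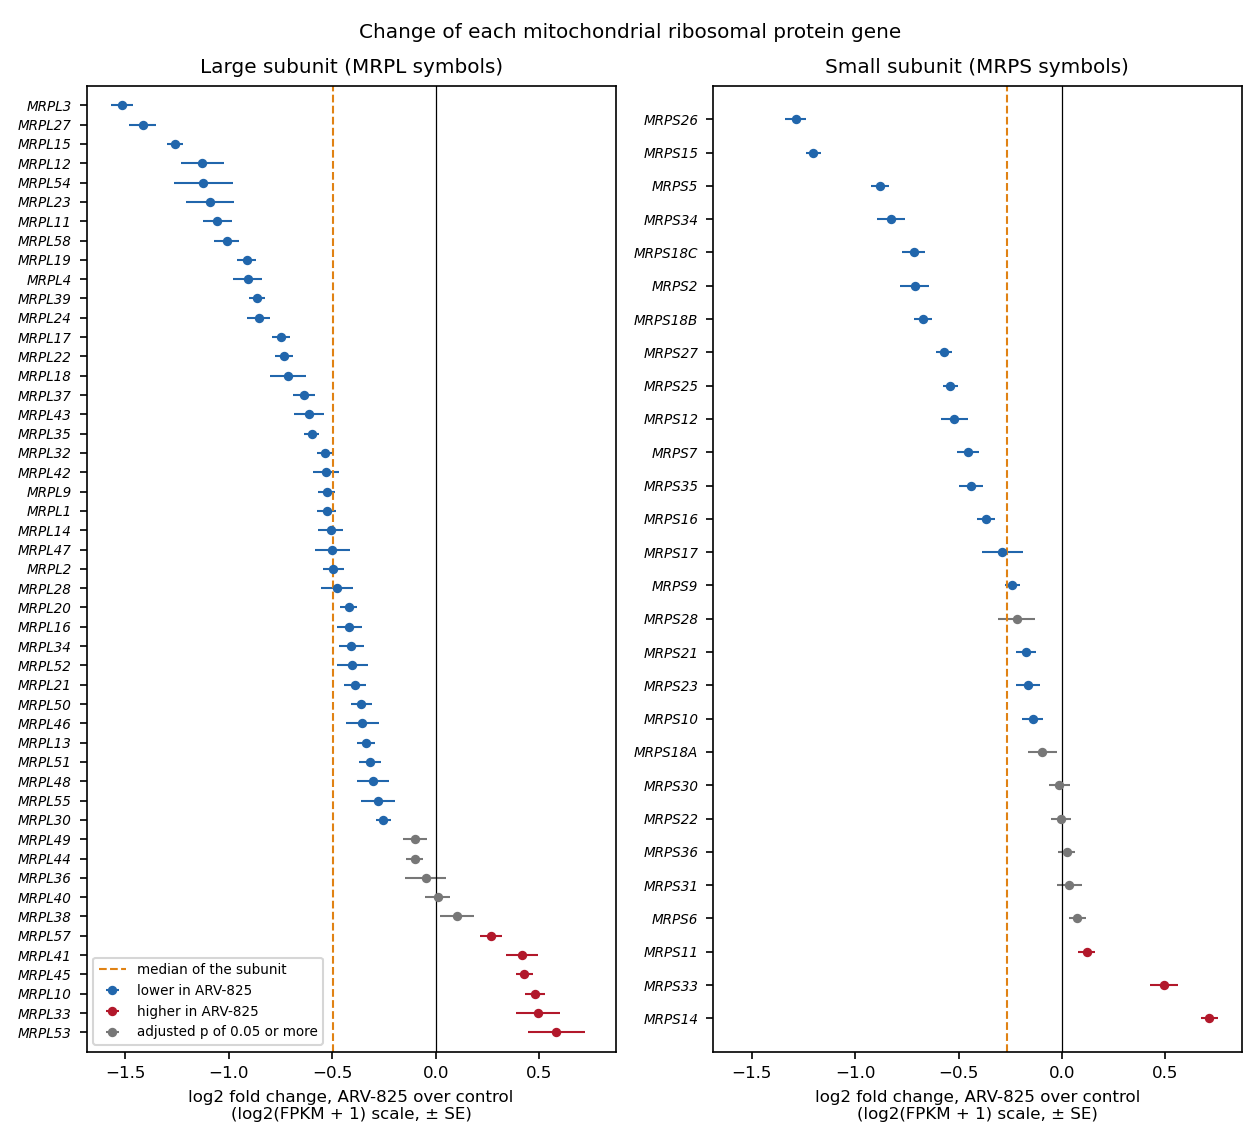
Log2 fold change of each of the 77 tested genes, ARV-825 over control, on the log2(FPKM + 1) scale with its standard error, for MRPL genes on the left and MRPS genes on the right, in the order of the change. Blue points were lower and red points higher at an adjusted p under 0.05, gray points did not pass, and the dashed lines mark the medians of −0.50 and −0.26.

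The promoters of the members were read for letters they share. RefSeq (GRCh38.p14) gave a window of 250 bases before to 50 bases after the start for 69 of the 78 genes. Both strands were searched for 4 short sequences, none of which contains another. CCGGAAG, a form of the ETS factor motif, was in 29 of the 69 windows (42.0%), in 10.7% of all 27305 promoters and in 20.9% of the 8687 promoters of tested protein-coding genes. Of the 29 genes that hold it, 21 were lower, 3 higher and 5 without a call, while 72.7% of all members tested were lower, and the median log2 fold change was −0.37 with it and −0.53 without it. AAGATGGC, a form of the YY1 motif, was in 20 windows (28.99%), against 3.03% of all promoters and 5.97% of those of tested coding genes. Of those 20 genes, 14 were lower, 1 was higher, 4 did not pass and *MRPS24* was under the filter. GCGCATGC, a form of the motif of NRF1, a factor known for driving nuclear genes of mitochondrial proteins, was in 6 windows (8.70%, against 3.27% and 6.0%), and all 6 genes (*MRPL17*, *MRPL22*, *MRPS18C*, *MRPS18B*, *MRPL32* and *MRPL52*) were lower. CACGTG, the E-box that MYC and its partners can bind, was in 6 windows (8.70%, against 7.43% and 10.4%), of which 3 belonged to genes that were lower, 1 to a gene that was higher and 2 to genes that did not pass. These are matches of letters, and binding was not measured here. The 100 bases before the start are printed 5′ to 3′ for 5 genes whose changes are described below, so that the promoters of genes that fell and of genes that rose can be read side by side, with CCGGAAG or its reverse complement in capitals. The start is that of RefSeq, and the GENCODE 29 gene begins earlier for 3 of them, so that 12 bases printed for *MRPL3*, 18 for *MRPL54* (from within the capitals on) and 2 for *MRPL33* lie inside that gene. The first 3 genes fell and the last 2 rose.
MRPL3 (chr3:131502972-131503071, minus strand): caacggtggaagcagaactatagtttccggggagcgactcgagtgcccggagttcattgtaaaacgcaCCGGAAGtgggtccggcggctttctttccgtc
MRPL54 (chr19:3762582-3762681, plus strand): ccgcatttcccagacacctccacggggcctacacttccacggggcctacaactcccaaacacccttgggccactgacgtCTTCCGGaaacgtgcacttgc
MRPL58 (chr17:75012570-75012669, plus strand): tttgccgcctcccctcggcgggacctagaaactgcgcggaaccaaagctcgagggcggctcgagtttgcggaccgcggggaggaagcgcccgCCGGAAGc
MRPL33 (chr2:27771619-27771718, plus strand): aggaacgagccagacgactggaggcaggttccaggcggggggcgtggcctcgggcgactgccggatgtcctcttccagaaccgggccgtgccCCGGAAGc
MRPS14 (chr1:175023426-175023525, minus strand): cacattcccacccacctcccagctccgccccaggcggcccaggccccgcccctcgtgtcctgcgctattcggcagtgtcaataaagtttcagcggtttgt
The ETS letters lie on the printed strand close to the start of *MRPL58*, which fell, and of *MRPL33*, which rose. They were absent from the printed stretch of *MRPS14*, the gene with the largest rise on the log2(FPKM + 1) scale.

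Among large-subunit genes that fell, *MRPL3* changed most. It encodes uL3m, a core protein that binds ribosomal RNA close to the catalytic center, and lies on chromosome 3 (GRCh38, 131462212 to 131502983, minus strand). Its level was 13.4, 12.01 and 12.9 FPKM in ARV-825 libraries 1, 2 and 3, against 38.6, 36.5 and 40.2 FPKM in control libraries 1, 2 and 3. The groups were far apart, with means of 12.8 ± 0.714 FPKM in ARV-825 and 38.4 ± 1.85 FPKM in control (SD, n = 3 each), and the log2 fold change was −1.52 ± 0.054 (SE, adjusted p = 7.9e-07, limma). *MRPL27*, for bL27m at the base of the central protuberance (chromosome 17, 50367857 to 50373214), was at 5.80, 4.77 and 4.97 FPKM in ARV-825, against 15.5, 15.6 and 15.3 FPKM in control. All 3 ARV-825 values were far below the lowest control value (log2 fold change −1.42 ± 0.066, adjusted p = 2.2e-06). *MRPL15*, for the core protein uL15m (chromosome 8, 54135210 to 54147901), was at 22.7, 21.4 and 21.0 FPKM in ARV-825, against 53.7, 53.9 and 52.5 FPKM in control. Its groups did not overlap and varied little (log2 fold change −1.26 ± 0.039, adjusted p = 4.8e-07).

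The stalk of the large subunit, which recruits translation factors, held genes that moved both ways. *MRPL12* encodes bL12m, the protein whose copies form the mobile part of the stalk, and was at 15.5, 11.9 and 12.4 FPKM in ARV-825, against 27.3, 31.6 and 31.2 FPKM in control. Every ARV-825 library was below every control library (log2 fold change −1.13 ± 0.10, adjusted p = 5.6e-05), and 68.2% of its exon bases are shared with a read-through gene on the same strand that is listed at 0 in every library. *MRPL54*, for the mitochondria-specific stalk protein mL54, was at 20.9, 17.05 and 13.6 FPKM in ARV-825, against 35.0, 38.5 and 40.7 FPKM in control. The ARV-825 libraries spread more than those of most members but stayed below the control libraries (log2 fold change −1.12 ± 0.14, adjusted p = 0.00029). *MRPL11*, for uL11m at the stalk base, was at 22.7, 20.02 and 18.5 FPKM in ARV-825, against 42.6, 43.7 and 43.7 FPKM in control, with no overlap (log2 fold change −1.05 ± 0.071, adjusted p = 1.1e-05). *MRPL10*, for uL10m, the protein that holds the bL12m copies, was instead at 48.6, 43.3 and 43.8 FPKM in ARV-825, against 31.6, 32.5 and 32.3 FPKM in control. All 3 ARV-825 libraries were above all control libraries (log2 fold change 0.48 ± 0.050, adjusted p = 0.00010). *MRPL53*, for the mitochondria-specific stalk protein mL53, was at 3.52, 2.18 and 3.05 FPKM in ARV-825, against 1.37, 1.64 and 1.77 FPKM in control (log2 fold change 0.58 ± 0.14, adjusted p = 0.0066). For this gene 45.2% of the exon bases are also exons of *CCDC142* on the same strand, which was at 4.73 ± 0.390 FPKM in ARV-825 and 3.08 ± 0.126 FPKM in control (SD, n = 3 each). The sources used here do not say how fragments of the shared bases were divided, so the *MRPL53* value is uncertain.

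At the rim of the exit tunnel, 6 of 8 genes were lower and 1 was higher, with *MRPL44* undecided, around a median log2 fold change of −0.74. The share lower was 75%, near the 74.5% of all large-subunit genes counted by place. *MRPL23*, for uL23m, a contact site of factors that meet the emerging chain, was at 8.0, 6.53 and 7.33 FPKM in ARV-825, against 19.1, 17.03 and 14.0 FPKM in control. The control libraries varied most, and still lay above every ARV-825 library (log2 fold change −1.09 ± 0.12, adjusted p = 0.00012). *MRPL17*, *MRPL22*, *MRPL24*, *MRPL39* and *MRPL47* fell by 0.75, 0.73, 0.86, 0.87 and 0.50 on the log2 scale. *MRPL45*, for the protein mL45 that anchors the ribosome to the inner membrane, was the member of this site that rose, at 49.9, 49.2 and 49.9 FPKM in ARV-825, against 36.9, 35.0 and 38.1 FPKM in control. The ARV-825 libraries were all higher (log2 fold change 0.43 ± 0.039, adjusted p = 5.4e-05), and under TPM the change was 0.13 and did not pass. *MRPL44*, with an RNase III fold, had a log2 fold change of −0.10 with overlapping groups.

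*MRPL58*, the eighth MRPL gene past a change of 1, encodes a peptidyl-tRNA hydrolase (mL62, also called ICT1) built into the large subunit. It was at 17.3, 16.0 and 15.2 FPKM in ARV-825, against 31.97, 32.9 and 35.6 FPKM in control. The ARV-825 mean was 0.482 of the control mean, and the groups did not overlap (log2 fold change −1.01 ± 0.060, adjusted p = 6.5e-06). The central protuberance, the crown of the subunit toward the small subunit, had 6 of 8 genes lower, none higher and 2 not passed (median −0.33). Its share lower of 75% was near the 74.5% of all large-subunit genes counted by place. The most abundant large-subunit genes were *MRPL51* and *MRPL14*. *MRPL51*, for the mitochondria-specific mL51, was at 63.1, 55.5 and 58.9 FPKM in ARV-825, against 73.5, 76.1 and 72.1 FPKM in control (log2 fold change −0.32 ± 0.052, adjusted p = 0.0011). *MRPL14*, for uL14m, which forms a bridge to the small subunit, was at 55.7, 47.7 and 49.9 FPKM in ARV-825, against 75.3, 70.8 and 72.8 FPKM in control (log2 fold change −0.51 ± 0.061, adjusted p = 0.00021). In both, the ARV-825 libraries were lower without overlap.

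**Figure D2:**
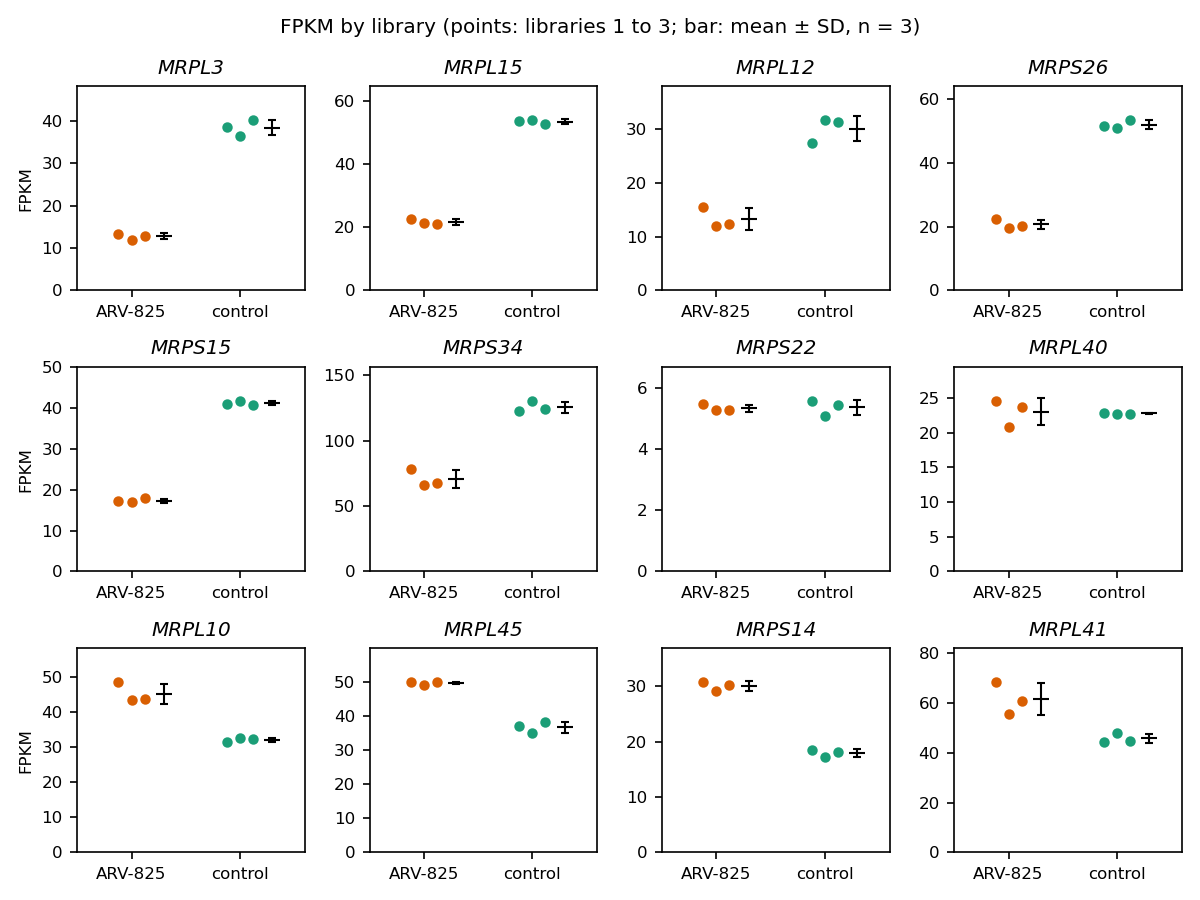
FPKM in each library for 12 members, ARV-825 on the left and control on the right of each panel, with points for libraries 1 to 3 in order and a bar for the mean ± SD (n = 3). MRPL3, MRPL15, MRPL12, MRPS26, MRPS15 and MRPS34 were lower in every ARV-825 library, MRPS22 and MRPL40 overlap, and MRPL10, MRPL45, MRPS14 and MRPL41 were higher in every ARV-825 library.

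The other large-subunit genes that rose were *MRPL33*, *MRPL41* and *MRPL57*. *MRPL33*, for bL33m near the exit site of transfer RNA, was at 14.1, 11.9 and 14.8 FPKM in ARV-825, against 8.55, 10.9 and 8.76 FPKM in control. Its groups came close, between ARV-825 library 2 and control library 2, without overlap (log2 fold change 0.49 ± 0.11, adjusted p = 0.0045). *MRPL41*, for the mitochondria-specific mL41, was at 68.4, 55.5 and 60.8 FPKM in ARV-825, against 44.5, 47.9 and 44.8 FPKM in control (log2 fold change 0.42 ± 0.076, adjusted p = 0.0020). It had the highest mean of the MRPL genes in ARV-825 libraries, where *MRPL51* had the highest in control libraries. Under TPM the changes of *MRPL33* (0.22) and *MRPL41* (0.11) did not pass. *MRPL57*, for the short protein mL63, had a log2 fold change of 0.27 ± 0.053 (adjusted p = 0.0030), which turned to −0.03 under TPM. *MRPL53*, *MRPL10*, *MRPS14* and *MRPS33* were the 4 genes that were also higher under TPM.

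In the small subunit, *MRPS26* and *MRPS15* were the genes past a change of 1 on the FPKM scale. Under TPM *MRPS5* (−1.23), *MRPS18C* (−1.16), *MRPS34* (−1.14) and *MRPS2* (−1.04) were past it too. *MRPS26*, for the mitochondria-specific mS26 (chromosome 20, 3045945 to 3048254, plus strand), was at 22.3, 19.7 and 20.2 FPKM in ARV-825, against 51.6, 50.8 and 53.4 FPKM in control. The groups were separated by more than the whole ARV-825 level (log2 fold change −1.29 ± 0.052, adjusted p = 1.3e-06). *MRPS15*, for uS15m, an early binder of the small ribosomal RNA (chromosome 1, 36455718 to 36464437, minus strand), was at 17.2, 16.95 and 17.9 FPKM in ARV-825, against 41.0, 41.7 and 40.8 FPKM in control. Both groups were tight, with SDs of 0.486 FPKM in ARV-825 and 0.484 FPKM in control (log2 fold change −1.20 ± 0.035, adjusted p = 3.7e-07). *MRPS5*, for uS5m at the entry of the messenger RNA, was at 8.82, 9.45 and 9.39 FPKM in ARV-825, against 18.4, 17.5 and 17.4 FPKM in control (log2 fold change −0.88 ± 0.043, adjusted p = 2.6e-06). *MRPS34*, for mS34, was the most abundant gene of all members, at 78.5, 65.7 and 67.6 FPKM in ARV-825, against 122, 130 and 124 FPKM in control. It also had the largest difference in FPKM, with means of 70.6 ± 6.86 in ARV-825 and 126 ± 4.10 in control (SD, n = 3 each; log2 fold change −0.83 ± 0.069, adjusted p = 3.4e-05). *MRPS21*, for bS21m and next in abundance in the small subunit, was at 56.0, 49.6 and 53.3 FPKM in ARV-825, against 58.1, 60.5 and 60.7 FPKM in control. Its ARV-825 libraries were lower by little (log2 fold change −0.17 ± 0.050, adjusted p = 0.016), and the call was lost without control replicate 2 (−0.17, adjusted p = 0.053), without control replicate 3 (−0.16, adjusted p = 0.055) and with library medians set equal (−0.11).

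*MRPS2*, for uS2m between the head and the body of the subunit, was at 17.7, 14.5 and 15.5 FPKM in ARV-825, against 26.8, 26.1 and 27.0 FPKM in control (log2 fold change −0.71 ± 0.069, adjusted p = 7.1e-05). *MRPS27*, for mS27, a protein with pentatricopeptide repeats, was at 21.7, 20.8 and 20.55 FPKM in ARV-825, against 31.0, 32.4 and 31.8 FPKM in control (log2 fold change −0.57 ± 0.037, adjusted p = 9.1e-06). Both genes had every ARV-825 library below the control libraries. *MRPS14* moved the other way and had the largest rise of any member on the log2(FPKM + 1) scale. The low and uncertain *MRPL53* had a larger ratio of mean FPKM, ARV-825 over control (1.83, against 1.67 for *MRPS14*). Its change was also larger under TPM (0.47 against 0.43). *MRPS14* encodes uS14m of the head (chromosome 1, 175010789 to 175023425, minus strand) and was at 30.7, 29.03 and 30.2 FPKM in ARV-825, against 18.5, 17.2 and 18.1 FPKM in control. The groups were well apart, with means of 30.0 ± 0.872 in ARV-825 and 17.9 ± 0.675 in control (SD, n = 3 each; log2 fold change 0.71 ± 0.042, adjusted p = 6.0e-06). *MRPS33*, for mS33, also of the head, was at 6.82, 6.81 and 6.25 FPKM in ARV-825, against 3.98, 4.59 and 4.74 FPKM in control, higher in all 3 libraries (log2 fold change 0.49 ± 0.068, adjusted p = 0.00046). *MRPS11*, for uS11m of the platform, was at 6.32, 6.26 and 5.95 FPKM in ARV-825, against 5.59, 5.65 and 5.56 FPKM in control. It passed with the smallest change of any member that did (log2 fold change 0.12 ± 0.041, adjusted p = 0.032), passed as lower under TPM (−0.16, adjusted p = 0.026), and lost its call without ARV-825 replicate 2 (0.11, adjusted p = 0.078) and without control replicate 1, 2 or 3 (0.12, 0.13 and 0.12). It also lost its call scaled to fragment totals (0.05), by voom (0.05) or with the replicate block (0.12, adjusted p = 0.074).

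The genes nearest to no change were *MRPS22*, *MRPL40* and *MRPS30*. *MRPS22*, for the mitochondria-specific mS22, was at 5.48, 5.29 and 5.28 FPKM in ARV-825, against 5.59, 5.08 and 5.46 FPKM in control. *MRPL40*, for mL40 of the central protuberance, was at 24.5, 20.8 and 23.6 FPKM in ARV-825, against 22.9, 22.7 and 22.7 FPKM in control. *MRPS30*, for mL65 of the large subunit, was at 12.7, 14.3 and 13.6 FPKM in ARV-825, against 13.7, 13.3 and 14.0 FPKM in control. All 3 overlapped between groups, and the signs of their small changes turned with the scaling or with a library left out. *MRPS36* did not pass either, at 14.4, 13.6 and 14.4 FPKM in ARV-825 against 14.3, 13.5 and 13.9 FPKM in control. *MRPS24*, for uS3m, was listed at 0.0525, 0.0509 and 0.0523 FPKM in ARV-825, against 0.235, 0.178 and 0.398 FPKM in control. That is 2, 2 and 2 fragments in ARV-825 and 11, 8 and 21 fragments in control, too few for a test here, and 23.2% of its exon bases are shared with the read-through gene *URGCP-MRPS24*, listed at 0 in every library.

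The 3 genes of the *MRPS18* family, paralogs of each other whose proteins are related to the bacterial protein bS18, differed among themselves. *MRPS18B*, whose protein is a separate small-subunit component (mS40), was at 25.2, 24.5 and 23.1 FPKM in ARV-825, against 39.1, 40.1 and 38.4 FPKM in control (log2 fold change −0.67 ± 0.043, adjusted p = 8.6e-06). *MRPS18C*, whose protein takes the place of bS18, was at 1.95, 1.75 and 1.94 FPKM in ARV-825, against 3.83, 3.68 and 3.68 FPKM in control (log2 fold change −0.72 ± 0.055, adjusted p = 2.2e-05). Both were lower in every ARV-825 library. The kit does not mark the strand, and 40.2% of the *MRPS18C* exon bases lie opposite *ABRAXAS1*, which was at 3.14 ± 0.556 FPKM in ARV-825 and 2.05 ± 0.187 FPKM in control (SD, n = 3 each). *MRPS18A*, whose protein sits in the large subunit (mL66), was at 18.7, 17.7 and 15.9 FPKM in ARV-825, against 17.5, 18.6 and 19.95 FPKM in control, with overlapping groups (log2 fold change −0.10 ± 0.071, adjusted p = 0.26). It lies opposite *RSPH9* over 47.0% of its exon bases. Over the members, 7 share more than 20% of their exon bases with a gene on the opposite strand and 7 with a gene on the same strand.

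Summed over members, less RNA of both subunits was measured after ARV-825. The FPKM of the 78 genes summed to 1598, 1458 and 1491 in ARV-825 libraries, against 2071, 2112 and 2092 in control libraries, which is a ratio of 0.725 between the means. MRPL genes summed to 1014 ± 57.9 FPKM in ARV-825 and 1393 ± 15.0 FPKM in control (SD, n = 3 each, ratio 0.728), and MRPS genes summed to 502 ± 15.3 FPKM in ARV-825 and 699 ± 5.63 FPKM in control (ratio 0.719). The ratio of the MRPL to the MRPS sum was 2.08, 1.97 and 2.004 in ARV-825 libraries and 1.99, 2.001 and 1.99 in control libraries, with overlap. The ratio of the median MRPL gene to the median MRPS gene was 1.05, 1.15 and 1.10 in ARV-825 libraries and 1.35, 1.40 and 1.35 in control libraries, without overlap. The sums follow the abundant genes, among which *MRPS34* was lower, while the medians count every gene alike. As a share of all fragments in genes, the members took 0.360% ± 0.0125 in ARV-825 and 0.525% ± 0.00268 in control (SD, n = 3 each).

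By origin, the large-subunit proteins with a bacterial counterpart had 27 of 30 genes lower, 2 higher (*MRPL10* and *MRPL33*) and 1 undecided (*MRPL36*), around a median log2 fold change of −0.53. The mitochondria-specific proteins of the large subunit had 11 of 21 genes lower, 4 higher and 6 undecided, around a median of −0.30 (16 lower, 1 higher and a median of −0.63 under TPM). In the small subunit, 11 of 15 tested genes with a bacterial counterpart were lower (73.3%, median −0.29). Of its 10 mitochondria-specific genes, 7 were lower (70%, median −0.49). The order of the medians was thus opposite in the subunits, and no difference between these classes was tested. The stalk had the most divided values, with 3 of its 5 genes below −1 and the other 2 higher.

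**Figure D3:**
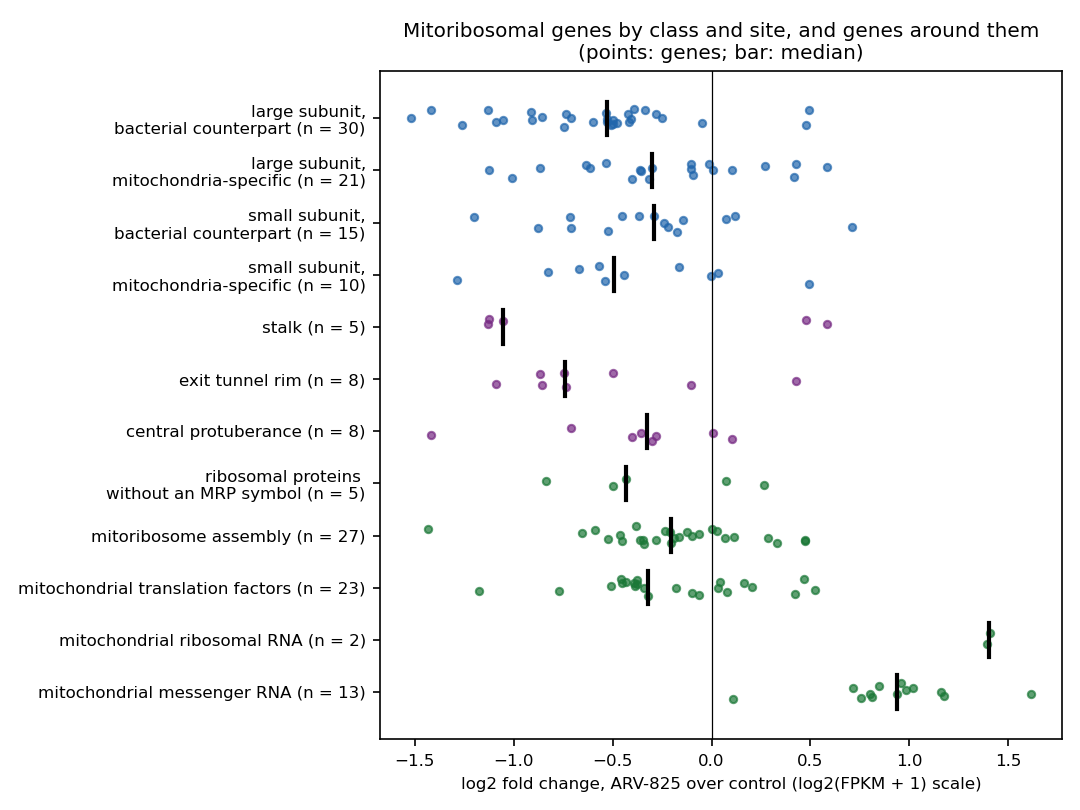
Log2 fold change, ARV-825 over control, of the members by class and by site in the large subunit, and of the lists of genes around them, where each point is a gene and each bar a median. All points of the ribosomal RNAs and of the mitochondrial messenger RNAs lie right of 0. Those of the bacterial-type large-subunit genes lie mostly left of 0, around their median of −0.53.

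Mitoribosomal proteins without an MRP symbol moved in both directions too. *GADD45GIP1* (mL64) was at 46.5 ± 4.65 FPKM in ARV-825 and 83.6 ± 2.36 FPKM in control (log2 fold change −0.84, adjusted p = 3.2e-05). *CHCHD1* (mS37) and *AURKAIP1* (mS38) were lower as well (−0.50 and −0.43), *PTCD3* (mS39) did not pass (0.07, but −0.23 and lower under TPM and 0.14 and higher with library medians set equal), and *DAP3* (mS29), a GTP-binding protein of the head, was at 40.5 ± 0.863 FPKM in ARV-825 and 33.5 ± 0.412 FPKM in control (log2 fold change 0.27, adjusted p = 0.00023, and −0.04 under TPM). Among 27 assembly factors, 13 were lower and 4 higher, with 10 undecided and a median of −0.20, so that the share lower was 48.1%, against 45.9% of all protein-coding genes tested. Under TPM, 22 were lower and 1 was higher (median −0.52). The largest changes were those of *MRM1* (−1.43), a methyltransferase of the large ribosomal RNA, *RCC1L* (−0.65), an assembly factor, *DDX28* (−0.59), a helicase of large-subunit assembly, and *RPUSD3* (−0.52), a pseudouridine synthase. Among 23 translation factors, 13 were lower (56.5%) and 5 higher (21.7%), with 5 undecided and a median of −0.32. Of all protein-coding genes tested, 45.9% were lower and 35.1% higher. Under TPM, 18 translation factors were lower and 2 higher (median −0.64), next to the TPM counts of all genes just given for the assembly factors. The largest falls were those of *TACO1* (−1.18), an activator of *COX1* translation, *MTO1* (−0.77), which modifies transfer RNA, and *TRMU* (−0.51), which does so too. *MTRF1L* (0.52), a release factor, was higher and was so under TPM as well (0.32).

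The RNAs of the mitochondrial genome moved opposite to most protein genes. The 12S ribosomal RNA *MT-RNR1* was at 2725, 2779 and 2779 FPKM in ARV-825, against 1025, 1087 and 1039 FPKM in control (log2 fold change 1.39 ± 0.040, adjusted p = 3.7e-07). The 16S ribosomal RNA *MT-RNR2* was at 10264, 12416 and 12277 FPKM in ARV-825, against 4249, 4608 and 4291 FPKM in control (log2 fold change 1.41 ± 0.085, adjusted p = 7.0e-06). Both were higher in every ARV-825 library, as were 12 of the 13 messenger RNAs, all but *MT-ATP8* (median of the 13, 0.94, and 0.63 under TPM). The kit named in the labels is of a type that selects RNA by its poly(A) tail, so the level of these RNAs also depends on their tails. Of 79 cytosolic ribosomal protein genes tested, 52 were higher (65.8%) and 9 were lower (11.4%), with a median of 0.18. The shares of all protein-coding genes tested were 35.1% higher and 45.9% lower. Under TPM, 12 of the 79 genes were higher and 35 lower (median −0.13). Without the mitochondrial genome in the totals, the members' medians were −0.50 for MRPL and −0.27 for MRPS genes, next to −0.02 for all genes.

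A number of members start close to a gene on the other strand. Only protein-coding partners that start upstream of the member were counted, and pairs that overlap at their starts were left out. Within 1000 bases, 16 such pairs were found and both genes were tested in 12. For comparison, 72.7% of all members tested were lower. Of all protein-coding genes tested, 35.1% were higher and 45.9% were lower. No relation between the genes of a pair was tested. In 7 pairs the member was lower and the partner higher (4 pairs under TPM), and in 1 pair, *MRPL57* and *SKA3* (43 bases apart), the member was higher, though not under TPM, and the partner, a gene of chromosome segregation, was at 3.44 ± 0.213 FPKM in ARV-825 and 13.1 ± 0.214 FPKM in control (SD, n = 3 each; log2 fold change −1.67). Both genes were lower in 3 pairs (*MRPL27* with *EME1*, *MRPL18* with *TCP1*, *MRPL21* with *IGHMBP2*). In the 12th pair, *MRPL36* did not pass and *NDUFS6* was lower (−0.66). One pair joined members of both subunits on chromosome 15, where *MRPL46* and *MRPS11* start 34 bases apart. *MRPL46*, for mL46 of the central protuberance, was at 1.28, 0.993 and 1.02 FPKM in ARV-825, against 1.66, 1.73 and 1.64 FPKM in control (log2 fold change −0.35 ± 0.081, adjusted p = 0.0057), while *MRPS11* had the small positive change given above, which turned to −0.16 under TPM. In the pair of *MRPS34* and *EME2*, 52 bases apart, *MRPS34* fell and *EME2*, a nuclease subunit, was at 6.48 ± 0.740 FPKM in ARV-825 and 3.95 ± 0.251 FPKM in control (log2 fold change 0.59).

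The libraries of the ARV-825 group varied more than those of the control group over the members, with a median SD of 0.0873 and 0.0393 on the log2 scale. ARV-825 replicate 1 was the highest of its group in 55 of the 77 genes and the farthest from the group's median in 42. This was counted over the members only. The libraries also differed as a whole, with FPKM sums of 348808 in ARV-825 replicate 1, 360662 in replicate 2 and 360322 in replicate 3. Without ARV-825 replicate 1 the counts were 40 MRPL and 17 MRPS genes lower, and 6 MRPL and 4 MRPS genes higher. The medians of both subunits stayed below that of all genes in each of the settings tried.

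**Figure D4:**
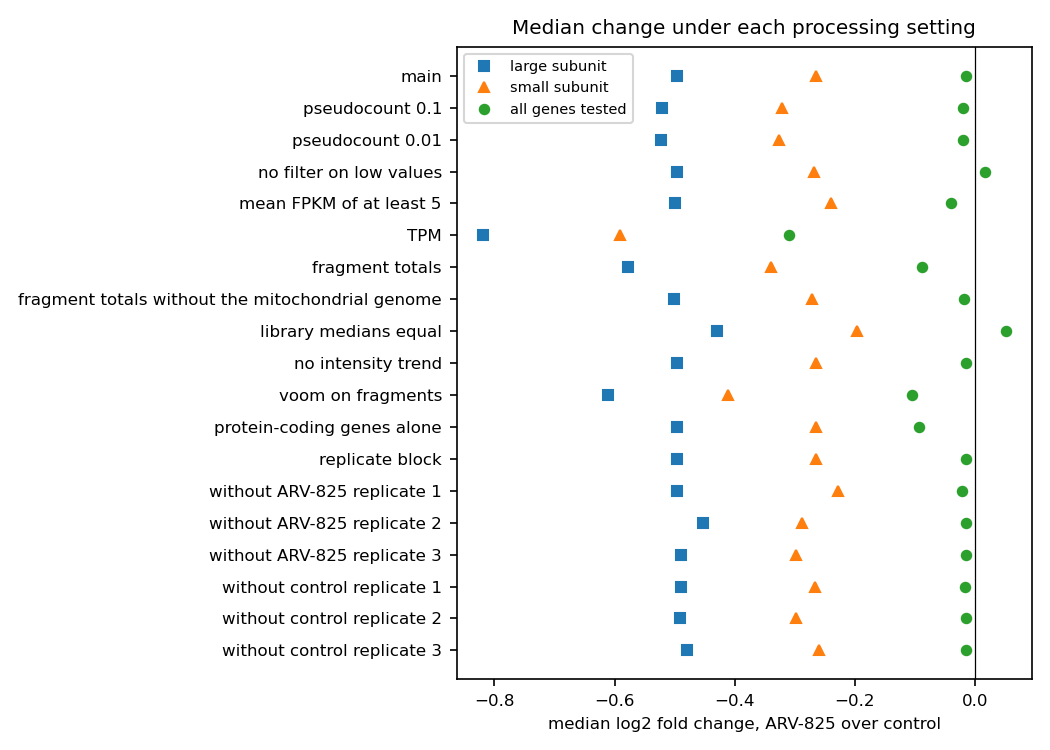
Median log2 fold change, ARV-825 over control, of the MRPL genes (squares), the MRPS genes (triangles) and all genes tested (circles) under each processing setting. The MRPL median lies left of the MRPS median, and both lie left of the median of all genes, in every setting, from −0.43, −0.20 and 0.05 with library medians set equal to −0.82, −0.59 and −0.31 under TPM.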

How the data were processed

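The authors deposited FPKM values for 58735 human genes in 6 libraries of HGC27 cells (ARV-825, n = 3; control, n = 3). HISAT2 2.0.5 and a mouse build, mm10, stand in the submitters' processing notes, yet all 58735 identifiers are human and are in GENCODE 29, which gave exon lengths and GRCh38 coordinates. The sources used here name no counting tool, annotation or strand setting. The authors' per-million scale was 0.983 to 0.989 of the fragments recovered in genes (FPKM times exon length) in ARV-825 and 1.04 to 1.05 in control libraries, which raises ARV-825 values against control. No column was left unused.

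From the deposited FPKM, log2(FPKM + 1) was fitted with limma 3.58.1 in R 4.3.3 (lmFit, eBayes with an intensity trend), for genes whose mean reached 1 FPKM, with p-values adjusted over all genes tested. The code was tested on simulated data. Fold changes on this scale understate those of low genes. Another 86 rows with MRPL or MRPS symbols (79 of them pseudogenes, and only 3 with a mean above 1 FPKM) were not members, and how the counting placed fragments they share with members is unknown. Members and lists were chosen with earlier results of these data known. Named with values were the 8 largest falls and up to 4 largest rises of each subunit at an adjusted p under 0.05, members past both thresholds, the 2 most abundant of each subunit, those nearest to 0, under the filter, in the *MRPS18* family or with a symbol that differs from their place, and up to 4 genes per list. *MRPL41*, *MRPL46*, *MRPL57*, the partner genes, the motifs, other genes of a site or motif, and the classes and sites of members were chosen after values were seen. Alternatives covered the pseudocount, the filter, the scaling, the variance model, the genes in the fit, the replicate block, the subunit assignment and each replicate left out. The values of a marker gene are not reported here. Groups of 3 were too small to look for outlying samples.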

Additional observations from a re-analysis of the deposited data

How the results depend on the processing

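The number of members lower ranged from 52 to 57 with 1 library left out, and the number higher from 8 to 10 (MRPL genes lower 37 to 40, MRPS genes lower 15 to 17). TPM moved the counts of members higher to 4, of MRPL genes higher to 2 and of all genes higher to 3176, and the medians to −0.82 (MRPL) and −0.59 (MRPS). The voom fit on recovered fragments gave medians of −0.61 and −0.41, and the assignment by structure gave −0.37 for the small subunit. A filter at a mean FPKM of 5 left 3100 genes lower and 2729 higher, since it tests fewer genes. Signs turned under TPM for *MRPS11* (−0.16), *MRPL40* (−0.30), *MRPS36* (−0.28) and *MRPL57* (−0.031), at fragment totals for *MRPL40* (−0.074) and *MRPS36* (−0.058), by voom for *MRPL40* (−0.078) and *MRPS36* (−0.063), and with library medians equal for *MRPS22* (0.062) and *MRPS30* (0.054). With 1 library left out, *MRPS22* ranged between −0.039 and 0.019, *MRPL40* between −0.037 and 0.077, and *MRPS30* between −0.052 and 0.029. The cause of these turns was not tested. Under TPM, *MRPS22*, *MRPS30*, *MRPS18A*, *MRPL40* and *MRPS36* passed as lower, and so did *MRPS11*, which had passed as higher on the FPKM scale. The replicate block gave 38 MRPL genes lower and 6 higher, 17 MRPS genes lower and 2 higher, and 5279 and 4870 of all genes. Samples with the same number shared only the number (correlations of their deviations 0.0042, 0.041 and 0.038), so the block is no pairing. *MRPS24*, at 2 fragments in each ARV-825 library, had too few for a test here. It shares 23.2% of its exon bases with *URGCP-MRPS24*, and how the counting placed fragments of these bases is unknown. The reason for its low values was not tested.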
